A study of Homo sapiens with 6 samples.

Results

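The SOX transcription factors were examined in Hep G2 cells, a human liver tumor line grown in culture, with and without EFTUD2 overexpression. The 7 genes were SOX4, SOX9, SOX12, SOX13, SOX5, SOX6 and SOX2, all found by name among the 23524 genes of the deposited expression table, and they were chosen because SOX4 stood lower in every EFTUD2 library. The control cells had received an empty lentivirus vector and the other cells a lentivirus carrying the EFTUD2 gene, which encodes a GTPase of the spliceosome. Both kinds of cells had been selected with puromycin, and whether they were single clones is not given in the sources used here. RNA-Seq was performed on 3 control and 3 EFTUD2 libraries, numbered 1 to 3 in each group. The labels do not say whether these came from separate cultures, so the spread given here is that between libraries and may be technical.

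Values are FPKM, fragments counted per gene and divided by transcript length and library size, as deposited with 2 decimals. Fold changes are differences of log2(FPKM + 1), EFTUD2 minus control, so differences between low values come out smaller than their ratio. EFTUD2 itself measured 41.1, 54.4 and 46.3 FPKM with the empty vector and, in the overexpressing cells, 106.6, 102.9 and 109.5 FPKM. The libraries thus matched their labels, the log2 fold change being 1.16 (standard error 0.12; limma, adjusted p = 0.13). The 8 hepatocyte markers were present in all libraries, with ALB (albumin) between 1773 and 4732 FPKM and SERPINA1 (alpha-1 antitrypsin) between 1901 and 3642 FPKM. Of 17222 genes tested with limma, 0 (0%) had an adjusted p under 0.05, while 757 (4.4%) were higher and 1361 (7.9%) lower at an unadjusted p under 0.05. Of the genes under this threshold, 35.7% were higher with the values as deposited. With the libraries scaled by the median of their ratios, 57.0% of the 1970 genes then under it were higher. This split thus rests on the scaling. EFTUD2 replicate 3 stood apart, since without it 131 genes had an adjusted p under 0.05.

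SOX proteins bind DNA through the HMG (high mobility group) box, the domain shared with the sex-determining factor SRY, which fits into the minor groove and bends the helix. The family is divided into lettered groups by the similarity of this box. SOX4 and SOX12 belong to group C, SOX5, SOX6 and SOX13 to group D, SOX9 to group E and SOX2 to group B1. In the liver, SOX9 marks the cells of bile ducts and progenitors, and SOX4 acts with it while the ducts form. SOX4 is also known as a target of TGF-beta signaling in epithelial cells, and SOX2 as a factor of pluripotent cells.

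The coding sequence at the start of the HMG box is shown because it is what makes these genes a family, while their levels in Hep G2 cells differed widely. Each line gives 27 bases on the coding strand, taken from transcripts of GENCODE release 29 (GRCh38), 5′ to 3′, and capitals mark bases that differ from SOX4.
SOX4: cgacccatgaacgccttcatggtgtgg
SOX12: AgGccGatgaacgcAttcatggtgtgg
SOX9: cgGcccatgaacgccttcatggtgtgg
SOX2: cgGcccatgaaTgccttcatggtgtgg
SOX13: AgGcccatgaacgccttcatggtgtgg
SOX5: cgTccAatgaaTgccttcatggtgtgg
SOX6: cgaccAatgaaTgcAttcatggtTtgg
The SOX9 stretch differed from that of SOX4 at 1 base, SOX2 and SOX13 at 2, SOX5 at 3, and SOX12 and SOX6 at 4. The stretch of SOX4 lies at chr6:21594715-21594741 in the only exon of the gene, that of SOX12 at chr20:326048-326074 in its only exon and that of SOX2 at chr3:181712487-181712513 in its only exon. For SOX9 it lies at chr17:72121710-72121736 in the coding part of exon 1 of 3. For the group D genes it lies in the latter part of the coding sequence, at chr1:204123705-204123731 in exon 12 of 14 for SOX13, at chr12:23543284-23543310 in exon 13 of 15 for SOX5, and at chr11:15989070-15989096 in exon 14 of 16 for SOX6, the last 2 on the minus strand.

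Over 237 bases of the HMG box, compared without gaps, SOX4 and SOX12 were identical at 83.1% of bases, and the 3 group D genes at 80.2 to 84.4%. Pairs from different groups were identical at 56.1 to 72.6% of bases. The genes also differ in their structure. In GENCODE release 29, SOX4 (5852 bases on chromosome 6), SOX12 (4630 bases on chromosome 20) and SOX2 (2513 bases on chromosome 3) each have 1 coding transcript with 1 exon. SOX9 (5401 bases on chromosome 17) has 2 coding transcripts of 3 exons, whereas SOX5 spans 1033045 bases with 13 coding transcripts and SOX6 773143 bases with 8. FPKM values pool the transcripts of a gene, so the forms of SOX5, SOX6 and SOX13 are not told apart here.

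In control cells SOX9 had the highest level of the 7 genes, at 83.2, 52.5 and 71.1 FPKM (mean 68.9 ± 15.4, SD, n = 3). SOX12 followed at 33.6, 35.5 and 38.3 FPKM (35.8 ± 2.40, SD, n = 3), and SOX4 at 15.8, 14.3 and 14.6 FPKM (14.9 ± 0.79, SD, n = 3). SOX13 stood at 8.28, 8.40 and 8.18 FPKM (8.29 ± 0.11, SD, n = 3) and SOX5 at 5.16, 4.62 and 4.98 FPKM (4.92 ± 0.28, SD, n = 3). In this order each gene lay above the next in all 3 control libraries, with no overlap between neighbours. SOX6 was at 0.83, 0.51 and 0.79 FPKM, and SOX2 reached 0.05, 0.03 and 0 FPKM, near the rounding step of the table. The spread between controls was small for SOX13, with a coefficient of variation of 1.33%, and 22.4% for SOX9, against a median of 10.7% over genes averaging 1 FPKM or more.

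**Figure D1:**
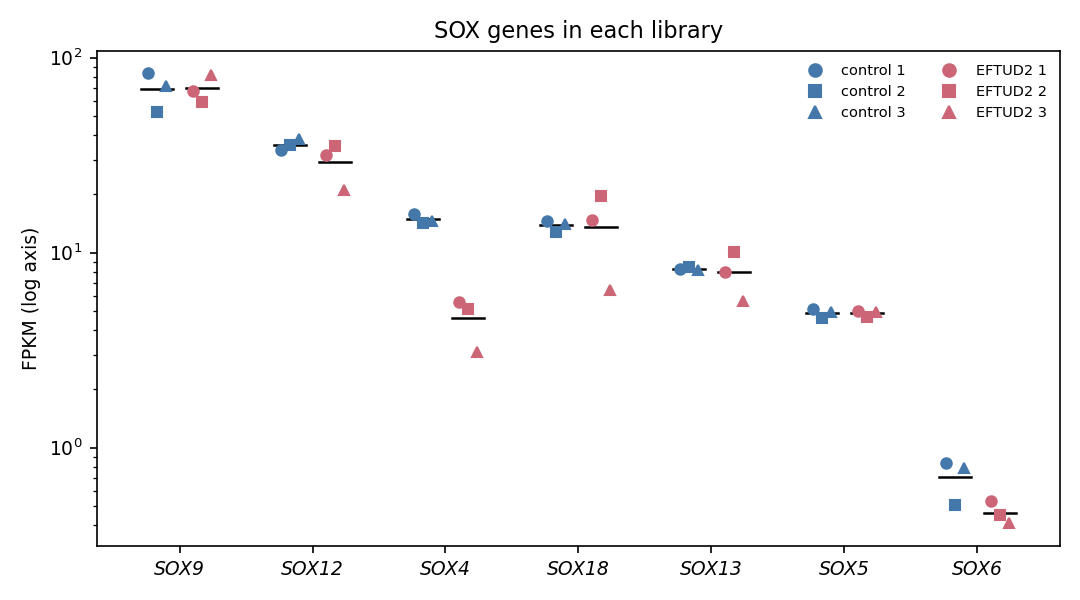
FPKM of 6 chosen SOX genes and of SOX18 (log axis) in each library, with control libraries in blue, EFTUD2 libraries in red, replicates 1, 2 and 3 as circles, squares and triangles, and group means as bars. SOX4 stands at 3.09 to 5.58 FPKM in the EFTUD2 libraries and at 14.3 to 15.8 FPKM in the controls, while the groups of the other genes overlap.

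SOX4 (Entrez gene 6659), a group C factor, measured 15.8, 14.3 and 14.6 FPKM in the 3 controls, against 5.58, 5.16 and 3.09 FPKM in EFTUD2 replicates 1, 2 and 3. The groups did not overlap, and the highest EFTUD2 library had 0.39 times the level of the lowest control. The mean of the EFTUD2 libraries, 4.61 ± 1.33 FPKM (SD, n = 3), was 0.31 times that of the controls, 69.0% lower. These values chose the gene, so they are given as a description with no test. The log2 fold change was -1.53 (standard error 0.20), which placed SOX4 at position 8 from the lowest of 17222 genes, and it lay between -1.73 and -1.32 over all settings tried. In bulk RNA, fewer cells with SOX4 mRNA and less of it per cell cannot be told apart.

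Among the genes tested, 47 (0.273%) had a log2 fold change of -1 or less, SOX4 being the member among them. Of the 6 members with a mean of at least 0.1 FPKM, SOX4 was the only one whose groups did not overlap in the lower direction, where 19.4% of all genes tested had such groups, and 0 did so in the higher direction, against 7.92% of all genes. A log2 fold change below 0 was found for 5 of the 6, as for 62.7% of all genes tested. As the members were chosen on this contrast, nothing is read from these counts.

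SOX12 (Entrez gene 6666), the other group C member in the table and a factor known for activity weaker than that of SOX4, stood at 31.6, 35.0 and 20.9 FPKM in the EFTUD2 libraries against 33.6 to 38.3 FPKM in the controls. Replicates 1 and 2 lay within or just under the control range, and replicate 3 lay well below it. The log2 fold change of SOX12 was -0.32 (standard error 0.19), and -0.10 without EFTUD2 replicate 3. The ratio of SOX12 to SOX4 was 2.13, 2.49 and 2.63 in the controls and 5.66, 6.79 and 6.75 in the EFTUD2 libraries. This ratio contains the SOX4 values that chose the genes and is a description only.

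The group D factors carry the HMG box but no activation domain of their own, and they act with partner proteins. SOX13 (Entrez gene 9580), known to bind TCF proteins, stood at 7.99, 10.1 and 5.65 FPKM in the EFTUD2 libraries, with replicate 2 above and replicates 1 and 3 below all controls (8.18 to 8.40 FPKM). Its log2 fold change was -0.09 (standard error 0.20), and it turned to 0.01 with median-of-ratios scaling, 0.04 with quantile normalization and 0.11 without EFTUD2 replicate 3. SOX5 (Entrez gene 6660) was nearly level, at 5.02, 4.67 and 4.97 FPKM against 4.62 to 5.16 FPKM in the controls, its log2 fold change being -0.01 (standard error 0.12). SOX6 (Entrez gene 55553), which with SOX5 assists SOX9 in cartilage, was at 0.53, 0.45 and 0.41 FPKM. Its groups overlapped narrowly, since the highest EFTUD2 library lay above the lowest control (0.51 FPKM), and its log2 fold change was -0.22 (standard error 0.11).

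SOX9 (Entrez gene 6662), the bile duct and progenitor factor, measured 83.2, 52.5 and 71.1 FPKM with the empty vector versus 67.5, 59.2 and 81.7 FPKM with EFTUD2. The groups overlapped fully, with means of 68.9 ± 15.4 and 69.5 ± 11.4 FPKM (SD, n = 3 each) and a log2 fold change of 0.02 (standard error 0.20). This value took either sign over the settings tried, from -0.19 to 0.17, and was -0.02 with a common sum per library. SOX9 was 5.28, 3.68 and 4.89 times as high as SOX4 in the controls, and 12.1, 11.5 and 26.4 times as high in the EFTUD2 libraries. SOX2 (Entrez gene 6657) had 0, 0 and 0.01 FPKM with EFTUD2, too low for a comparison.

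**Figure D2:**
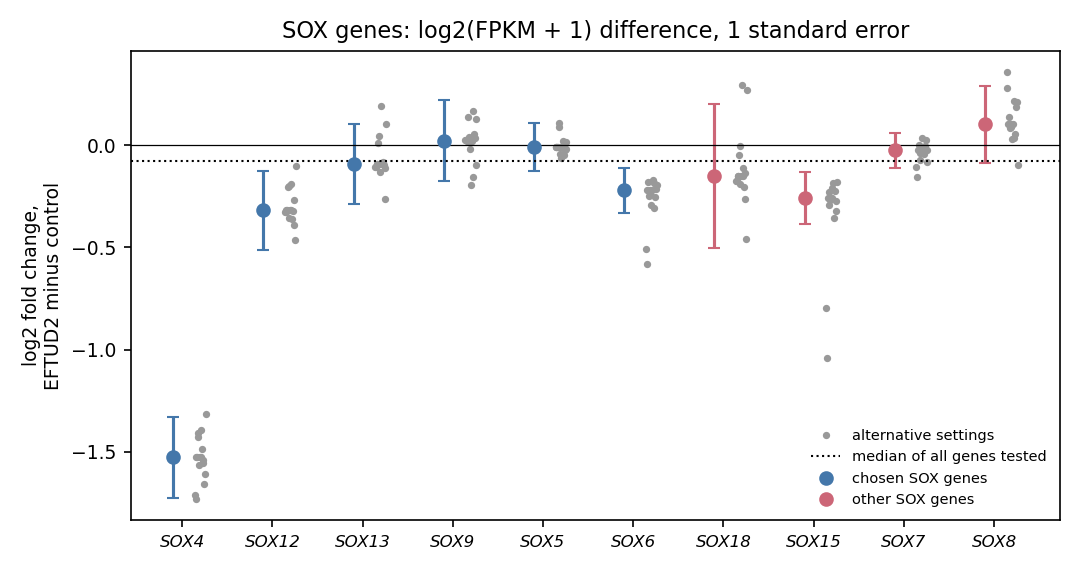
Difference of log2(FPKM + 1), EFTUD2 minus control, for 6 chosen SOX genes (blue) and 4 other SOX genes (red), with bars of 1 standard error from limma, gray points for the alternative settings and a dotted line at the median of all genes tested (-0.07). SOX4 lies at -1.53, and the other chosen genes lie between -0.32 and 0.02.

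Of 12 other SOX genes listed, 9 were in the table, 4 passed the filter on low values, and SOX1, SOX3 and SOX11 were not analysed here. SOX18 (Entrez gene 54345), a group F factor of blood and lymph vessels, was close to SOX4 in the controls, with 14.6, 12.8 and 14.1 FPKM, so that the ranges of these genes overlapped there. In the EFTUD2 libraries SOX18 stood at 14.6, 19.5 and 6.41 FPKM, above SOX4 in each. Its group means, 13.8 ± 0.95 and 13.5 ± 6.61 FPKM (SD, n = 3 each), differed by less than the spread between libraries, the log2 fold change being -0.15 (standard error 0.35; limma, adjusted p = 0.84), and its direction turned without EFTUD2 replicate 3 (0.27). SOX15, SOX7 and SOX8 had means under 0.5 FPKM in both groups and adjusted p of 0.42, 0.90 and 0.80 from limma. SOX17, a factor of endoderm, was listed at 0 with the empty vector, against 0.08, 0.13 and 0.01 FPKM with EFTUD2, and SOX10, SOX14, SOX21 and SOX30 did not exceed 0.04 FPKM in any library.

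The SOX genes of the table summed to 163, 129 and 153 FPKM in the controls and to 134, 135 and 124 FPKM in the EFTUD2 libraries. SOX9 made up the largest share of this sum in every library, with 46.1 ± 5.24% in control and 53.4 ± 11.2% in EFTUD2-overexpressing cells (SD, n = 3 each). SOX4 contributed 9.68, 11.0 and 9.51% in the controls and 4.18, 3.82 and 2.49% in the EFTUD2 libraries. SOX12 took 24.4 ± 3.47 and 22.1 ± 4.76% (SD, n = 3 each), and SOX5 3.33 ± 0.21 and 3.74 ± 0.27%. The shares of SOX4 restate the values that chose it. By level, SOX4 was at 3.02 ± 0.09 times SOX5 in the controls, and at 1.11, 1.10 and 0.62 times SOX5 in EFTUD2 replicates 1 to 3, so that in replicate 3 their order was reversed. The EFTUD2 range of SOX4 (3.09 to 5.58 FPKM) thus overlapped that of SOX5, and it ended just short of that of SOX13, which stood above SOX4 within each EFTUD2 library.

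**Figure D3:**
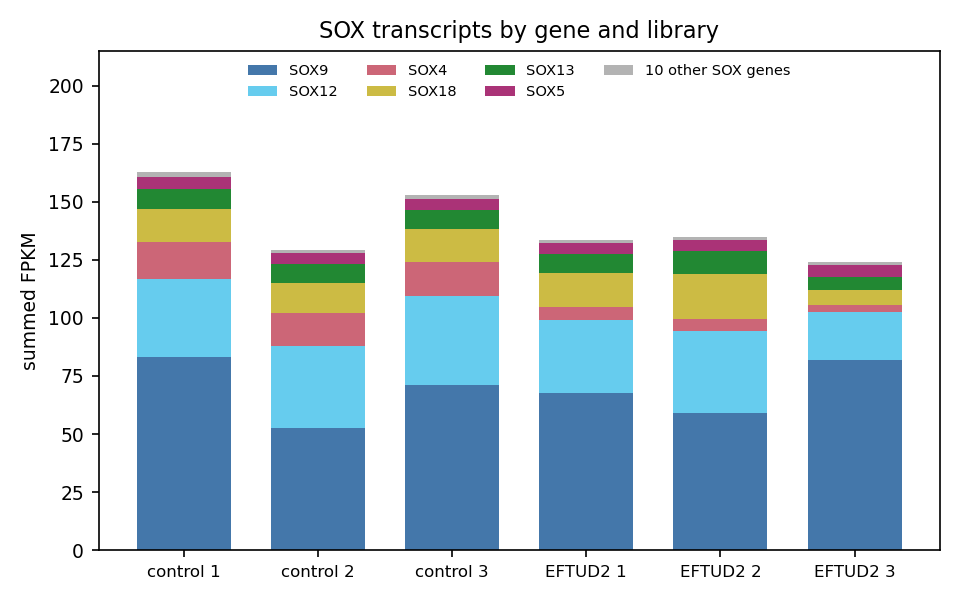
Summed FPKM of the 16 SOX genes in the table for each library, stacked by gene. The band of SOX4 is thinner in each EFTUD2 library (2.49 to 4.18% of the sum) than in each control (9.51 to 11.0%), while SOX9 is the thickest band in every library.

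The EFTUD2 libraries differed from each other more than the controls did for several SOX genes. The coefficient of variation was 5.32% among the controls and 28.9% among the EFTUD2 libraries for SOX4, 6.71 and 25.4% for SOX12, and 1.33 and 28.2% for SOX13. It was instead smaller among the EFTUD2 libraries for SOX5 (5.59 and 3.87%), SOX9 (22.4 and 16.4%) and SOX6 (24.6 and 13.2%). SOX4, SOX12, SOX13 and SOX18 were all lowest in EFTUD2 replicate 3, at 0.58, 0.63, 0.62 and 0.38 times the mean of replicates 1 and 2. SOX9 was instead highest there, at 1.29 times that mean, and SOX5 stood at 1.03 times. Over 12555 genes averaging 1 FPKM or more this ratio had a median of 0.85 (quartiles 0.65 and 1.11), so that 16.0% of genes had a lower ratio than SOX4 and 84.9% a lower ratio than SOX9. Without replicate 3 the log2 fold change of SOX4 was -1.32.

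**Figure D4:**
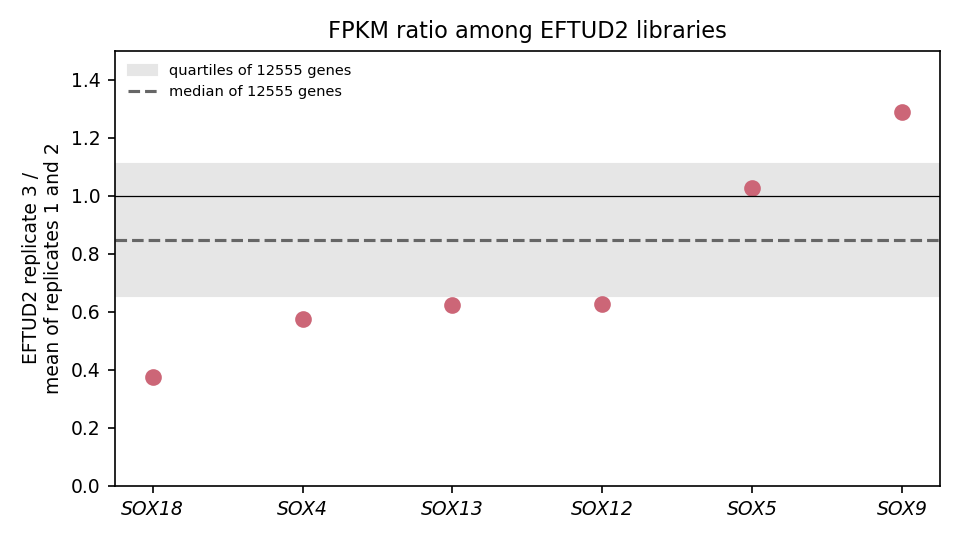
Ratio of the FPKM in EFTUD2 replicate 3 to the mean of EFTUD2 replicates 1 and 2 for 6 SOX genes, with the quartiles (gray band, 0.65 to 1.11) and the median (dashed line, 0.85) of all genes averaging 1 FPKM or more. SOX18, SOX4, SOX13 and SOX12 lie under the band, SOX5 lies in it and SOX9 above it.

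Genes with a pattern most like that of SOX4 were sought by Pearson's r of log2(FPKM + 1) over the 6 libraries. Among 12554 genes, 273 (2.17%) had an r of at least 0.95, and the median r was 0.48. The closest were RAPGEF1 (r = 0.999), which encodes an exchange factor for small GTPases, DST (r = 0.995), which encodes a linker of the cytoskeleton, ZNF816 (r = 0.994), and the provider's genes BGI_novel_G001861 (r = 0.996) and BGI_novel_G001559 (r = 0.995). RAPGEF1 measured 23.6 to 24.2 FPKM with the empty vector versus 19.5, 19.4 and 17.6 FPKM with EFTUD2, so its difference was far smaller than that of SOX4. DST had 37.4, 34.6 and 35.0 FPKM in the former and 26.9, 25.3 and 22.9 FPKM in the latter. Over the same libraries SOX12 had an r of 0.75 with SOX4, and SOX9 one of -0.14. The points share the libraries and their scaling, and an r over 6 libraries in 2 groups mainly follows the difference between the groups.

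The genes most like SOX9 were ATXN3, AGAP4, DYNC1I1, COLCA2 and BGI_novel_G002927, with r of 0.985 to 0.995, and 48 genes (0.382%) had an r of at least 0.95. ATXN3, which encodes a deubiquitinase, measured 2.28, 1.53 and 1.99 FPKM with the empty vector versus 1.92, 1.65 and 2.19 FPKM with EFTUD2. Like SOX9, these 5 genes were lowest in control replicate 2 and had their highest levels in control replicate 1 or EFTUD2 replicate 3. SOX5 had an r of 0.90 with SOX9.

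Genes of bile ducts and progenitors, the cells that SOX9 marks, differed in their direction. The lists here and below were written with earlier results of these data known, so their p-values describe the genes and are no independent test. Of 13 tested, 3 were higher and 1 lower at an unadjusted p under 0.05 (all genes, 4.4 and 7.9%), 0 had an adjusted p under 0.05, with a median log2 fold change of 0.02 (all genes, -0.07). KRT19, a keratin of duct cells, measured 314, 358 and 373 FPKM with the empty vector versus 163, 153 and 103 FPKM with EFTUD2, 0.40 times the control mean. Like SOX4, it was lower in each EFTUD2 library, as for 19.4% of all genes tested. It was lowest in replicate 3, at 0.65 times the mean of replicates 1 and 2. This ratio lay near the lower quartile of genes averaging 1 FPKM or more (0.65). The log2 fold change of KRT19 was -1.34 ± 0.19 (SE; limma, adjusted p = 0.21, and 0.030 without EFTUD2 replicate 3). Over all settings its adjusted p from limma ran from 0.0069 to 0.66, the lowest with array weights, whose estimation did not converge. SPP1, which encodes osteopontin, had the opposite direction, with 173, 441 and 455 FPKM in the controls against 1154, 1210 and 521 FPKM (log2 fold change 1.46 ± 0.47, SE; limma, adjusted p = 0.40). ONECUT2, a factor of liver and duct development, was at 3.31 ± 0.27 and 5.05 ± 1.18 FPKM (SD, n = 3 each; adjusted p = 0.40 from limma). KRT7, also a duct keratin, stood at 24.7, 61.2 and 0.78 FPKM in the EFTUD2 libraries and at 0.61 to 1.34 FPKM in the controls, so that replicate 3 lay within the control range. KRT7 falls outside the rule for named genes and was picked after its values were seen.

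SOX proteins share their type of DNA-binding domain with the TCF/LEF factors of the Wnt pathway, and several of them bind beta-catenin. The list for this pathway held TCF/LEF factors, beta-catenin and corepressors of the TLE family. Of its 9 genes tested, 1 was higher and 0 lower at an unadjusted p under 0.05 (4.4 and 7.9% of all genes). An adjusted p under 0.05 was found for 0 of them. CTNNB1, which encodes beta-catenin, stood at 145.8 ± 0.61 FPKM in the controls and 139.3 ± 5.82 FPKM in the EFTUD2 libraries (SD, n = 3 each; adjusted p = 0.73 from limma). TLE1, a corepressor, was at 36.7 ± 4.73 and 37.6 ± 9.35 FPKM (adjusted p = 0.98). The gene past the unadjusted threshold was TLE2, a related corepressor at 0.07 FPKM or less in the controls and 0.44, 0.71 and 0.13 FPKM in the EFTUD2 libraries (adjusted p = 0.40).

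Notch signaling acts upstream of SOX9 in bile duct development. Of 12 Notch pathway genes tested, 1 was higher and 0 lower at an unadjusted p under 0.05, near the 4.4 and 7.9% of all genes, with a median log2 fold change of 0.18 that was 0.01 without EFTUD2 replicate 3. JAG2, a ligand, measured 0.18, 0.08 and 0.11 FPKM with the empty vector versus 0.61, 1.31 and 0.39 FPKM with EFTUD2 (log2 fold change 0.62 ± 0.19, SE; limma, adjusted p = 0.40). JAG1, the ligand with the highest level, stood at 35.6, 42.3 and 33.2 FPKM and at 29.9, 28.1 and 75.7 FPKM, high in EFTUD2 replicate 3 only. HES4, a target, was at 20.0 ± 4.92 and 24.3 ± 4.74 FPKM (SD, n = 3 each; adjusted p = 0.54).

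TGF-beta signaling is a known inducer of SOX4. Of 12 genes of this pathway tested, 0 were higher and 1 lower at an unadjusted p under 0.05, near the shares of all genes (4.4 and 7.9%), and the median log2 fold change was -0.05, near that of all genes. The receptor gene TGFBR2 stood at 88.9 ± 10.6 and 74.0 ± 12.9 FPKM (SD, n = 3 each; adjusted p = 0.45 from limma), and TGFBR3 at 48.5 ± 21.0 and 45.1 ± 16.1 FPKM (adjusted p = 0.93). LTBP1, which encodes a protein that binds latent TGF-beta, was at 0.27 to 0.32 FPKM with the empty vector, against 0.15, 0.17 and 0.06 FPKM with EFTUD2 (adjusted p = 0.40).

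Of 7 genes reported elsewhere as targets or partners of SOX4, 0 passed an unadjusted p under 0.05 (12.3% of all genes did), while 6 had a log2 fold change below 0, as did 62.7% of all genes. The groups did not overlap in the lower direction for 2 of the 7 and in the higher direction for 0 (19.4 and 7.92% of all genes). The median log2 fold change of the 7 was -0.16, and 0.00 without EFTUD2 replicate 3. TUBB3, a tubulin of neurons, stood at 172.9 ± 23.8 and 149.2 ± 38.6 FPKM (SD, n = 3 each; adjusted p = 0.60 from limma). MDM2, the ubiquitin ligase of p53, measured 38.7, 36.4 and 32.0 FPKM with the empty vector versus 31.8, 29.5 and 27.6 FPKM with EFTUD2, with groups that did not overlap, as for 19.4% of all genes in this direction (log2 fold change -0.26 ± 0.11, SE; limma, adjusted p = 0.40).

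Among genes linked to pluripotent cells, in which SOX2 acts, 7 of 10 could be tested. Of these, 0 were higher and 1 was lower at an unadjusted p under 0.05 (4.4 and 7.9% over all genes). LIN28B, which binds let-7 precursors and is active in fetal liver and liver tumors, measured 38.0, 37.2 and 34.0 FPKM with the empty vector versus 23.3, 20.6 and 20.6 FPKM with EFTUD2. All EFTUD2 libraries lay below all controls, as for 19.4% of all genes tested. The log2 fold change of LIN28B was -0.73 (standard error 0.10; limma, adjusted p = 0.21, and 0.045 without EFTUD2 replicate 3). Over all settings its adjusted p from limma ran from 0.0077 to 0.66, the lowest with array weights, whose estimation did not converge. MYC was nearly level at 82.9 ± 0.84 and 86.6 ± 3.11 FPKM (SD, n = 3 each, with an adjusted p of 0.73 from limma). All its EFTUD2 libraries lay above all controls, as for 7.92% of all genes, but only just (83.47 against 83.45 FPKM at the closest). In cartilage, where SOX9, SOX5 and SOX6 act together, they drive genes of the matrix. Of 6 such genes tested 0 passed the unadjusted threshold in either direction (12.3% of all genes did), with COL9A3 at 98.2 ± 12.3 and 110.0 ± 7.12 FPKM and MATN3 at 41.9 ± 20.3 and 35.9 ± 11.1 FPKM (SD, n = 3 each; adjusted p = 0.53 and 0.87 from limma).

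**Figure D5:**
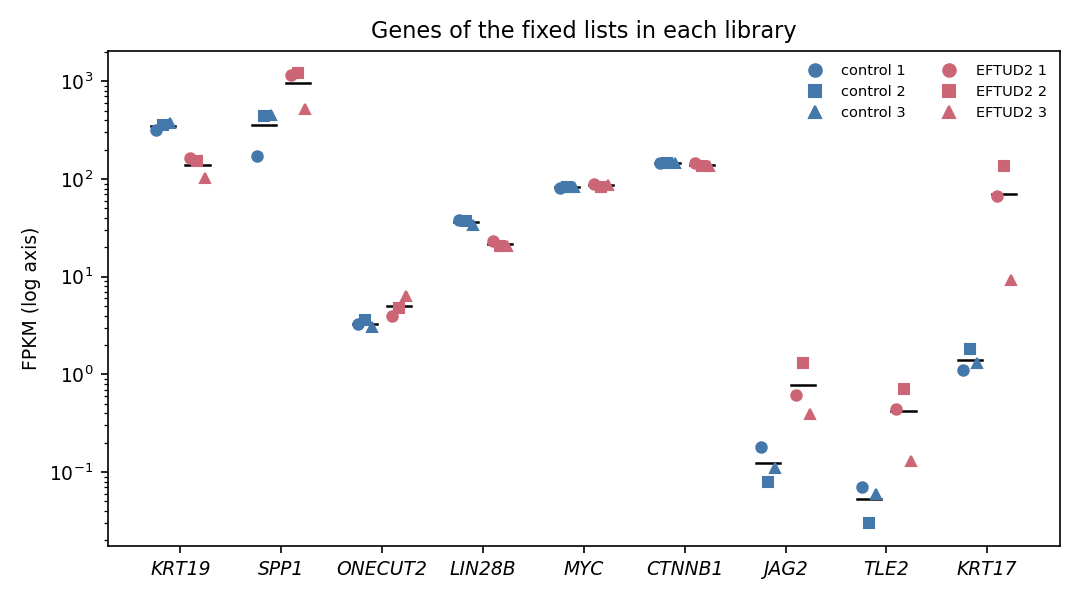
FPKM (log axis) of 9 genes from the lists around the SOX factors in each library, with control libraries in blue, EFTUD2 libraries in red, replicates 1, 2 and 3 as circles, squares and triangles, and group means as bars. KRT19 and LIN28B are lower in each EFTUD2 library, and SPP1, ONECUT2, JAG2, TLE2 and KRT17 are higher in each. MYC is also higher in each, by a small margin, and the groups of CTNNB1 overlap. ONECUT2, JAG2 and TLE2 were named by a rule that requires groups without overlap, so their separation was set by the choice. KRT19, LIN28B, SPP1 and KRT17 met this rule and were also named for their level. Of all genes tested, 19.4% had groups without overlap in the lower direction and 7.92% in the higher.

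Markers of other cell types were read in the same libraries, and 0 of them had an adjusted p under 0.05 from limma with all libraries in. The 5 squamous markers summed to 1.12 to 1.80 FPKM in the controls and to 67.2, 136 and 9.39 FPKM in EFTUD2 replicates 1 to 3, nearly all from KRT17 (66.9, 135 and 9.29 FPKM; log2 fold change 4.25 ± 0.86, SE; limma, adjusted p = 0.31, and 5.33 with an adjusted p of 0.013 without EFTUD2 replicate 3), with KRT14 at 0.83 FPKM or less, KRT5 at 0 and TP63 and KRT6A at no more than 0.01 FPKM. The 6 fibroblast markers summed to 0.50 to 1.58 and 2.32 to 4.26 FPKM, led by PDGFRB and COL1A1, with COL3A1 listed at 0 with the empty vector, against 0.62, 1.49 and 0.14 FPKM with EFTUD2, and COL1A2 at 0 in all. The 6 leukocyte markers summed to 0.62 to 1.04 and 1.5 to 2.51 FPKM, of which CD14 made up most (0.83 ± 0.22 and 1.99 ± 0.55 FPKM, SD, n = 3 each). CYBB reached 0.12 FPKM, PTPRC 0.02 FPKM, and TYROBP and CD3E stood at 0. The 4 endothelial markers summed to 1.09 to 1.53 and 1.28 to 1.60 FPKM, with KDR at 0.01 FPKM or less. PECAM1 was lower in each EFTUD2 library, as for 19.4% of all genes tested. VWF and CDH5 were higher in each, as for 7.92% of all genes, and all 3 stayed at 1.19 FPKM or less. The 8 hepatocyte markers summed to 6376 to 9907 FPKM in the controls and to 8474 to 12982 FPKM in the EFTUD2 libraries. Among the EFTUD2 libraries alone, SOX18, SOX13, SOX12 and KRT17 were highest in replicate 2 and lowest in replicate 3, and SOX4 was also lowest in replicate 3. The part of these markers in the SOX values was not tested.

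Since EFTUD2 acts in splicing and SOX4 has no intron, genes were also divided by exon number. Among tested protein-coding genes, the 283 with 1 exon in every coding transcript had a median log2 fold change of -0.087, and the 13149 others one of -0.095. The groups did not overlap in the lower direction for 19.4% of the former and 21.7% of the latter. Of the SOX genes with 1 exon, SOX4 and SOX12 had log2 fold changes of -1.53 and -0.32, and SOX2 was too low for a comparison. FPKM per gene do not show splicing, and a part of splicing in the SOX values was not tested.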

How the data were processed

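Poly-A RNA, isolated with TRIzol, was sequenced on the BGISEQ-500. The authors deposited FPKM per gene and library, rounded to 2 decimals, in 1 table. The submitters' processing notes name HISAT2, Bowtie2, RSEM and DESeq2 and the build hg38, with no versions, roles or annotation. FPKM are already divided by length and library size, and read numbers were not used here. Low values held no common step between libraries (the commonest ratio to control replicate 1 took at most 1.96% of genes), so the depth is unknown and no counting interval is given.

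From these values log2(FPKM + 1) was taken, and the 17222 genes averaging 0.1 FPKM or more were tested with limma 3.58.1 (lmFit, eBayes with trend) in R 4.3.3, with Benjamini-Hochberg adjustment over all genes and a threshold of 0.05. An exact two-sided permutation test of 3 against 3 libraries cannot give a p below 0.1 and was not used as evidence. On simulated data, limma recovered 87.5% of 200 genes with a log2 change of 2 among 17222, with 6 false calls. With a log2 change of 1 it recovered 46%, with 5 false calls. The simulated noise was drawn independently for each gene, without the shared deviation of EFTUD2 replicate 3, and low genes were left unchanged. These shares therefore check the code and do not give the power in these data. Python 3.11.15, pandas 2.3.3, scipy 1.17.1 and matplotlib 3.10.9 were used for further steps. The table showed 26 symbols as dates, which were replaced through Entrez numbers.

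The SOX genes and all gene lists were chosen with earlier results of these data known. The 7 SOX genes therefore carry no p-value, and the p-values of genes from the lists are a description and no independent test. Named genes were the 7, EFTUD2, the other SOX genes in the table, from each list up to 4 genes past an unadjusted p of 0.05 whose groups did not overlap, by size of change, and the 2 of highest mean level, and the 5 genes most like SOX4 and SOX9 among those averaging 1 FPKM or more. KRT7 and, to show the range of the other cell markers, KRT5, KRT6A, TP63, COL1A2, PTPRC, TYROBP, CD3E and KDR were named outside this rule after their values were seen. RNA genes next to SOX genes were listed but had no row of that name. Gene structure and coding sequence came from GENCODE release 29 (GRCh38, the assembly also called hg38), and the longest coding transcript with the HMG box was used. Alternatives were pseudocounts of 0.1 and 0.01, an average of 1 FPKM or more or no filter, 3 further scalings (median of ratios, quantile, common sum), array weights, a robust empirical Bayes fit, a replicate block, and each library left out.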

Additional observations from a re-analysis of the deposited data

How the results depend on the processing

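SOX4, SOX12 and SOX6 had a log2 fold change below 0 under all settings run for them. With each library left out in turn, the log2 fold change lay between -1.66 and -1.32 for SOX4, -0.46 and -0.10 for SOX12, -0.31 and -0.17 for SOX6, -0.26 and 0.11 for SOX13, -0.05 and 0.02 for SOX5, and -0.16 and 0.17 for SOX9. Changes over 1 SD between libraries were those of SOX6 with pseudocounts of 0.1 (-0.51) and 0.01 (-0.58), SOX5 with median-of-ratios scaling (0.091) and quantile normalization (0.11), and SOX13 with array weights (0.19). The count of genes with an adjusted p under 0.05 was 0 as reported, 1246 with array weights, and 0 to 131 with each library left out, 131 being the fit without EFTUD2 replicate 3. The estimation of array weights stopped before it converged and gave control replicate 3 a weight of 27.7 and EFTUD2 replicate 1 one of 0.035, so its counts and p-values are not reliable. At an unadjusted p under 0.05, 2118 genes became 3763 with array weights (1792 higher) and 1093 to 2873 with each library left out (372 to 1346 higher and 673 to 1542 lower). The higher count was 480 with a mean of at least 1 FPKM, and the lower count was 848 with median-of-ratios scaling. Without control replicates 1, 2 and 3 there were 1166, 1093 and 1196 genes in all.

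Of the other named genes, these turned direction, none with an adjusted p under 0.05 from limma. With median-of-ratios scaling CTNNB1 was at 0.05 and TGFBR3 at 0.043, and with a common sum per library TLE1 was at -0.029. With array weights COL9A3 was at -0.034, JAG1 at -0.11, PDGFRB at -0.17, SOX18 at 0.29, SOX7 at 0.034 and TLE1 at -0.085. With single libraries left out, values spanned -0.053 to 0.49 for ALB, -0.34 to 0.36 for JAG1, -0.52 to 0.21 for MATN3, -0.028 to 0.41 for PDGFRB, -0.46 to 0.27 for SOX18, -0.082 to 0.027 for SOX7, -0.094 to 0.22 for SOX8, -0.39 to 0.24 for TGFBR3 and -0.18 to 0.13 for TLE1. The cause was not tested. The adjusted p from limma ranged over all settings from 0.0069 to 0.66 for KRT19, 0.0077 to 0.66 for LIN28B, 0.0066 to 0.68 for KRT17 and 0.0069 to 0.53 for EFTUD2, the lowest in each case with array weights. Without EFTUD2 replicate 3 it was 0.030, 0.045, 0.013 and 0.031 for these 4 genes.

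With the replicate number as a block, 0 genes had an adjusted p under 0.05 and 2027 an unadjusted one. In this balanced design the block cannot alter a fold change. The deviations of libraries that share a number had correlations of -0.30, 0.35 and -0.09 for numbers 1, 2 and 3. Those of libraries with unlike numbers ran from -0.40 to 0.38. With 3 libraries per group these values depend on each other, so whether the number pairs the libraries cannot be told. FPKM with 2 decimals limit what can be said of SOX2, SOX17 and other genes under 0.1 FPKM.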

Other observations

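The RefSeq promoter windows of GRCh38.p14, 250 bases before to 50 bases after the start, matched 6 of the 7 SOX genes. The window of SOX4 had a GC content of 49.3% and 8 CpG, against medians of 58.3% and 14 over 27305 promoters, and those of SOX13, SOX5, SOX6 and SOX2 had 60.0 to 63.7%. SOX12, the other group C gene, had 80.3% and 54 CpG. The letters CCAAT, read on both strands, occurred 4 times in the SOX4 window, a number reached by 1.06% of promoters, and once each in those of SOX12 and SOX2, where 35.7% of promoters hold at least 1 match. The STAT-type letters TTCNNNGAA were in none of the 6 windows and in 7.88% of promoters, and AACAAT, a SOX-type motif, was in that of SOX5 only and in 10.3% of promoters. The RefSeq start of SOX4 lies 983 bases downstream of the GENCODE gene start, so another start would give another window. A match is a description of the letters and not a site.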
